A study of Homo sapiens with 12 samples.

Results

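The survival proteins of the BCL2 family were followed at the RNA level in H929 cells, a human multiple myeloma line. The members were all probe sets that the platform annotation assigns to MCL1, BCL2, BCL2L1, BCL2L2 or BCL2A1. These 5 genes, of 19775 with a probe set of their own, had 18 of the 54613 probe sets of the array other than controls, and a probe set is a group of short probes read together as a measure of a transcript. MCL1 had 6 probe sets, BCL2 and BCL2L1 had 4 each, BCL2L2 had 3 and BCL2A1 had 1. The study compared 4 groups of 3 arrays: untreated cells, cells given 250 nM CHR-3996 (an inhibitor of histone deacetylases, written CHR3996 in the labels), cells given 1 µM tosedostat (an inhibitor of aminopeptidases, labelled CHR2797), and cells given both compounds at those doses. Each treatment lasted 24 hours. The groups share a single cell line, no vehicle is named for the untreated cells, and the samples are labelled as biological replicates with nothing more said of separate cultures, so that the p-values speak only of the variation among these arrays, which may be technical.

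BCL2 family proteins decide at the outer mitochondrial membrane whether a stressed cell releases cytochrome c and dies by apoptosis. The survival members MCL1, BCL2, BCL-XL (from BCL2L1), BCL-W (from BCL2L2) and BFL-1 (from BCL2A1) bind the effectors BAX and BAK and hold them inactive, and BH3-only proteins such as NOXA (from PMAIP1), BIM (from BCL2L11) and BID occupy the survival proteins or activate the effectors. Plasma cells and most myelomas are known for their need of MCL1, a short-lived protein whose level also depends on ubiquitin ligases and a deubiquitinase, while BCL2 and BCL-XL dependence varies between myelomas.

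Of the 18 probe sets, 16 passed the filter on low values and were tested, 15 of them assigned to a single gene. The remaining tested probe set, 201544_x_at, is assigned to BCL2L2, PABPN1 and their read-through gene, and cannot be credited to any of the 3. The 2 that did not pass were both from BCL2L1. A value is the deposited log2 expression value, a difference is a difference of group means on that scale, and a probe set is called higher or lower where limma, fitted to all 12 arrays and 36395 probe sets, gave a Benjamini-Hochberg adjusted p under 0.05. The number of arrays limits the precision. Probe sets of a gene are not replicates of a condition, and levels are compared only within a probe set.

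Replicate arrays correlated at r between 0.978 and 0.983 within each group. All 8 plasma cell markers passed the filter, as did FGFR3 and NSD2, known to be activated in this line by its translocation. Of the markers of other cells, CD3D, CD14 and COL1A2 fell under the filter and MS4A1 stayed between 4.48 and 5.09 on all arrays. Several technical measures and markers moved with CHR-3996, and their part in the results was not tested. The median value of an array was 5.04 ± 0.04 (SD, n = 3) in untreated cells, 5.26 ± 0.03 with CHR-3996, 5.05 ± 0.01 with tosedostat and 5.29 ± 0.02 with both. The signal of actin at the 3′ end over the 5′ end, a sign of RNA integrity and amplification, was 2.14 ± 0.17, 1.59 ± 0.17, 2.09 ± 0.11 and 1.24 ± 0.15 log2 units in the same order. The same measure for GAPDH was 0.44 ± 0.06, 0.45 ± 0.06, 0.43 ± 0.08 and 0.35 ± 0.09, and so did not move with CHR-3996 alone as actin did. The summed level of the plasma cell markers lay between 15.59 and 15.66 on the log2 scale in untreated cells, between 14.68 and 15.18 with CHR-3996, between 15.62 and 15.70 with tosedostat and between 15.00 and 15.04 with both. The summed level of the myeloid markers CD14 and LYZ lay between 3.91 and 4.57, 5.14 and 5.64, 4.07 and 4.48, and 4.80 and 5.61, and no marker of either list was at 0. The movement of the myeloid sum rested on LYZ, higher by 2.03 on the log2 scale with CHR-3996, while CD14 lay between 3.32 and 3.88 in untreated cells, between 3.46 and 3.79 with CHR-3996 and between 2.68 and 3.63 with both. The summed level of MS4A1 and PAX5 lay between 5.88 and 6.14, 6.19 and 7.89, 5.66 and 6.03, and 6.55 and 7.85, that of the T cell markers CD3D and CD3E between 5.40 and 6.29 on all arrays with 1 value at 0, and that of COL1A1 and COL1A2 between 6.90 and 7.69.

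When the arrays were rescaled by quantile normalization, the median difference of all tested probe sets moved from 0.11 to −0.10 under CHR-3996, from 0.14 to −0.12 under the combination and from 0.03 to −0.02 under tosedostat. Equal array medians gave −0.11, −0.10 and 0.02. The share of higher calls among all calls fell with it, from 65.1% to 47.6% and 47.2% under CHR-3996 and from 69.3% to 46.6% and 48.8% under the combination, and under tosedostat from 87.7% to 75.9% and 87.1%. Where rescaling changed a call of a member, or moved a called value by over 1.5 times, the rescaled value is given beside it.

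The 250 bases before the transcription start are shown for BCL2 and BCL2A1, whose brightest probe sets were called in opposite directions under CHR-3996. The sequences are from RefSeq on GRCh38.p14, on the minus strand, 5′ to 3′, and end at the last base before the start. Capitals mark CG dinucleotides and TATAAA, the letters of a TATA box, searched on both strands.
BCL2 chr18:63319770-63320019: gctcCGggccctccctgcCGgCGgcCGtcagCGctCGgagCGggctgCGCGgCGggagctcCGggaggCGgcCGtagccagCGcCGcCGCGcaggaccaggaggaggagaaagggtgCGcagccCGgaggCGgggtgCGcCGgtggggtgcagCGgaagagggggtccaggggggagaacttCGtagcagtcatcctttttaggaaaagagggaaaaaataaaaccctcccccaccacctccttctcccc
BCL2A1 chr15:79971197-79971446: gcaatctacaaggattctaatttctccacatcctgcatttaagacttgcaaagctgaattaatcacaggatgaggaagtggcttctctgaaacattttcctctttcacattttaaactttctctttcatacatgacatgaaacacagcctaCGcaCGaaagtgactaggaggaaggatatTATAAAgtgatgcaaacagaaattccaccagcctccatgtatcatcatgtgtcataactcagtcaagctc
The BCL2 sequence was 70.0% G and C and held 24 CG, against medians of 58.0% and 11 over 35116 RefSeq promoters of the same length, and it held no TATAAA. The BCL2A1 sequence was 38.8% G and C, held 2 CG, and held TATAAA once, beginning 70 bases before the start. TATAAA was found on either strand in 10.7% of all promoters. BCL2L1 has 2 entries with 12 and 17 CG, of which the first held no TATAAA and the second held it 2 times. No promoter was shown for MCL1 and BCL2L2. These letters are a description of the windows, and binding or acetylation at them was not measured. A link between them and the response to CHR-3996 was not tested.

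The treatments left different marks on the 5 genes. MCL1 was called higher in 1 of its 6 probe sets under CHR-3996, in 4 under tosedostat and in 5 under the combination. Of all tested probe sets 29.4%, 3.23% and 32.0% were called higher. The 1 call under CHR-3996 was not kept with equal array medians, nor were those of 200797_s_at and 200798_x_at under the combination. No call of the 5 genes under tosedostat was kept without untreated replicate 3 or without tosedostat replicate 1. BCL2 rose most under CHR-3996 and the combination, in 2 of its 4 probe sets, and less under tosedostat, in 1. BCL2L1 rose under tosedostat, by its brightest probe set, and was lower in the combination than under tosedostat, while BCL2A1 fell under CHR-3996 with or without tosedostat.

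**Figure D1:**
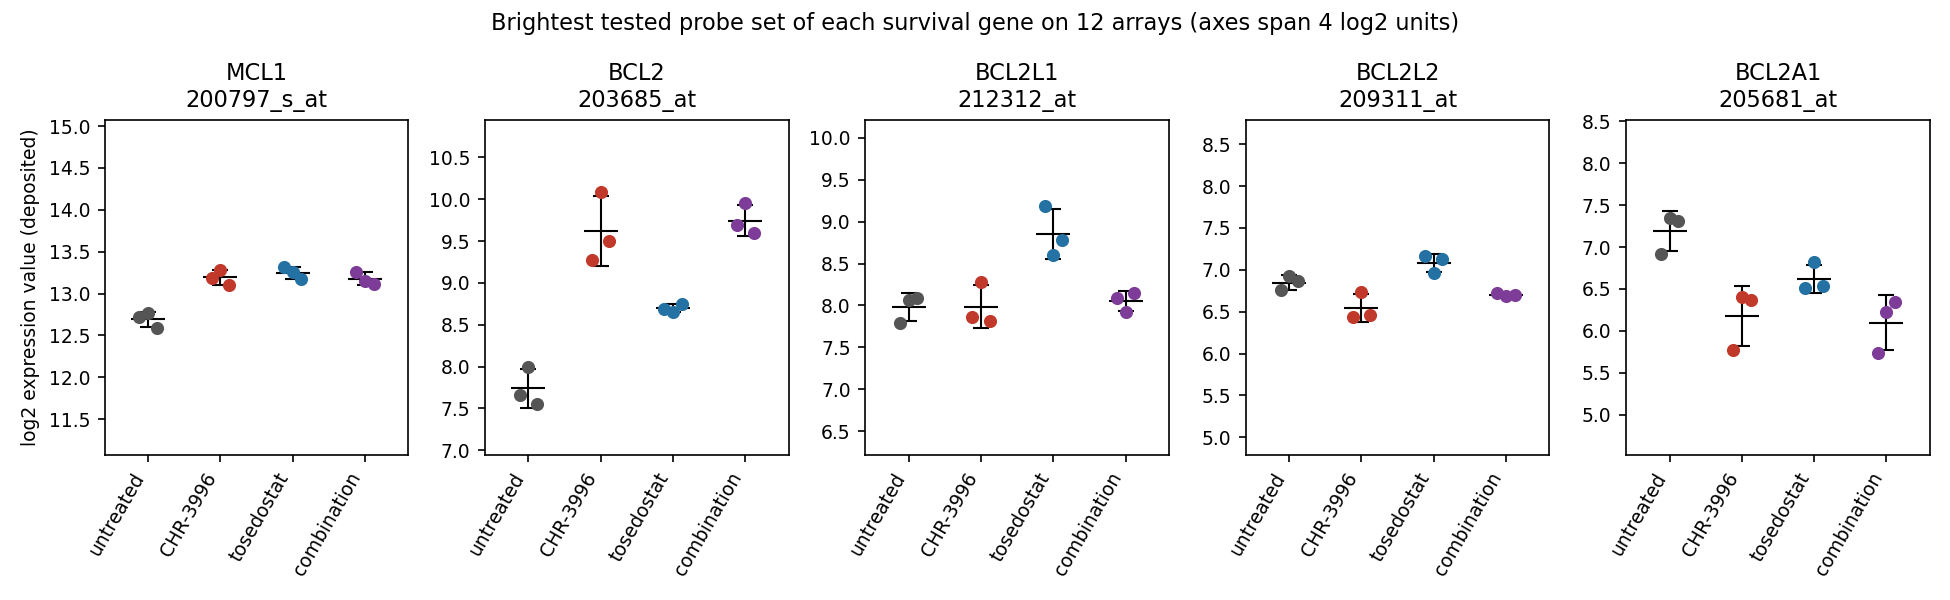
Log2 expression values of the brightest tested probe set of each gene on 12 arrays, points being arrays and black bars the mean ± SD of 3 arrays; every vertical axis spans 4 log2 units but starts at a different level. The 3 treated groups of MCL1 lie above the untreated arrays, BCL2 is highest with CHR-3996 and the combination, and BCL2L1 is highest with tosedostat alone.

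With CHR-3996, 3 of 16 member probe sets were called higher and 1 lower, where 29.4% of all tested probe sets were called higher and 15.7% lower (45.1% in either direction). With tosedostat, 6 were called higher and 0 lower, where 3.23% of all were called higher and 0.451% lower (3.68% either way), and 4 of the 6 were probe sets of MCL1. With the combination, 7 were called higher and 2 lower, against 32.0% and 14.1% of all (46.1% either way). The median difference of the 16 was 0.08, 0.42 and 0.16 in these comparisons, beside 0.11, 0.03 and 0.14 over all tested probe sets. All arrays of the treated group lay above all untreated arrays in 7 of 16 probe sets under CHR-3996 (33.4% of all tested), in 10 under tosedostat (16.1%) and in 8 under the combination (36.6%), and below them in 2 (19.6%), 1 (8.47%) and 3 (18.4%). The 10 under tosedostat include BCL2L1 215037_s_at, which passed the filter mainly through that group. This probe set also enters the median of 0.42, and under the combination the 2 lower calls and the 3 below. The 3 comparisons share the untreated arrays. By the study's own criteria, at least a 2-fold change with a linear difference over 100 and an unadjusted p under 0.05, BCL2 203685_at alone met them under CHR-3996 (13.3% of all tested), under the combination (13.4%) and for the combination against tosedostat (11.2%). No member met them under tosedostat (0.769%), for the combination against CHR-3996 (0.104%) or for CHR-3996 against tosedostat (11.6%).

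**Figure D2:**
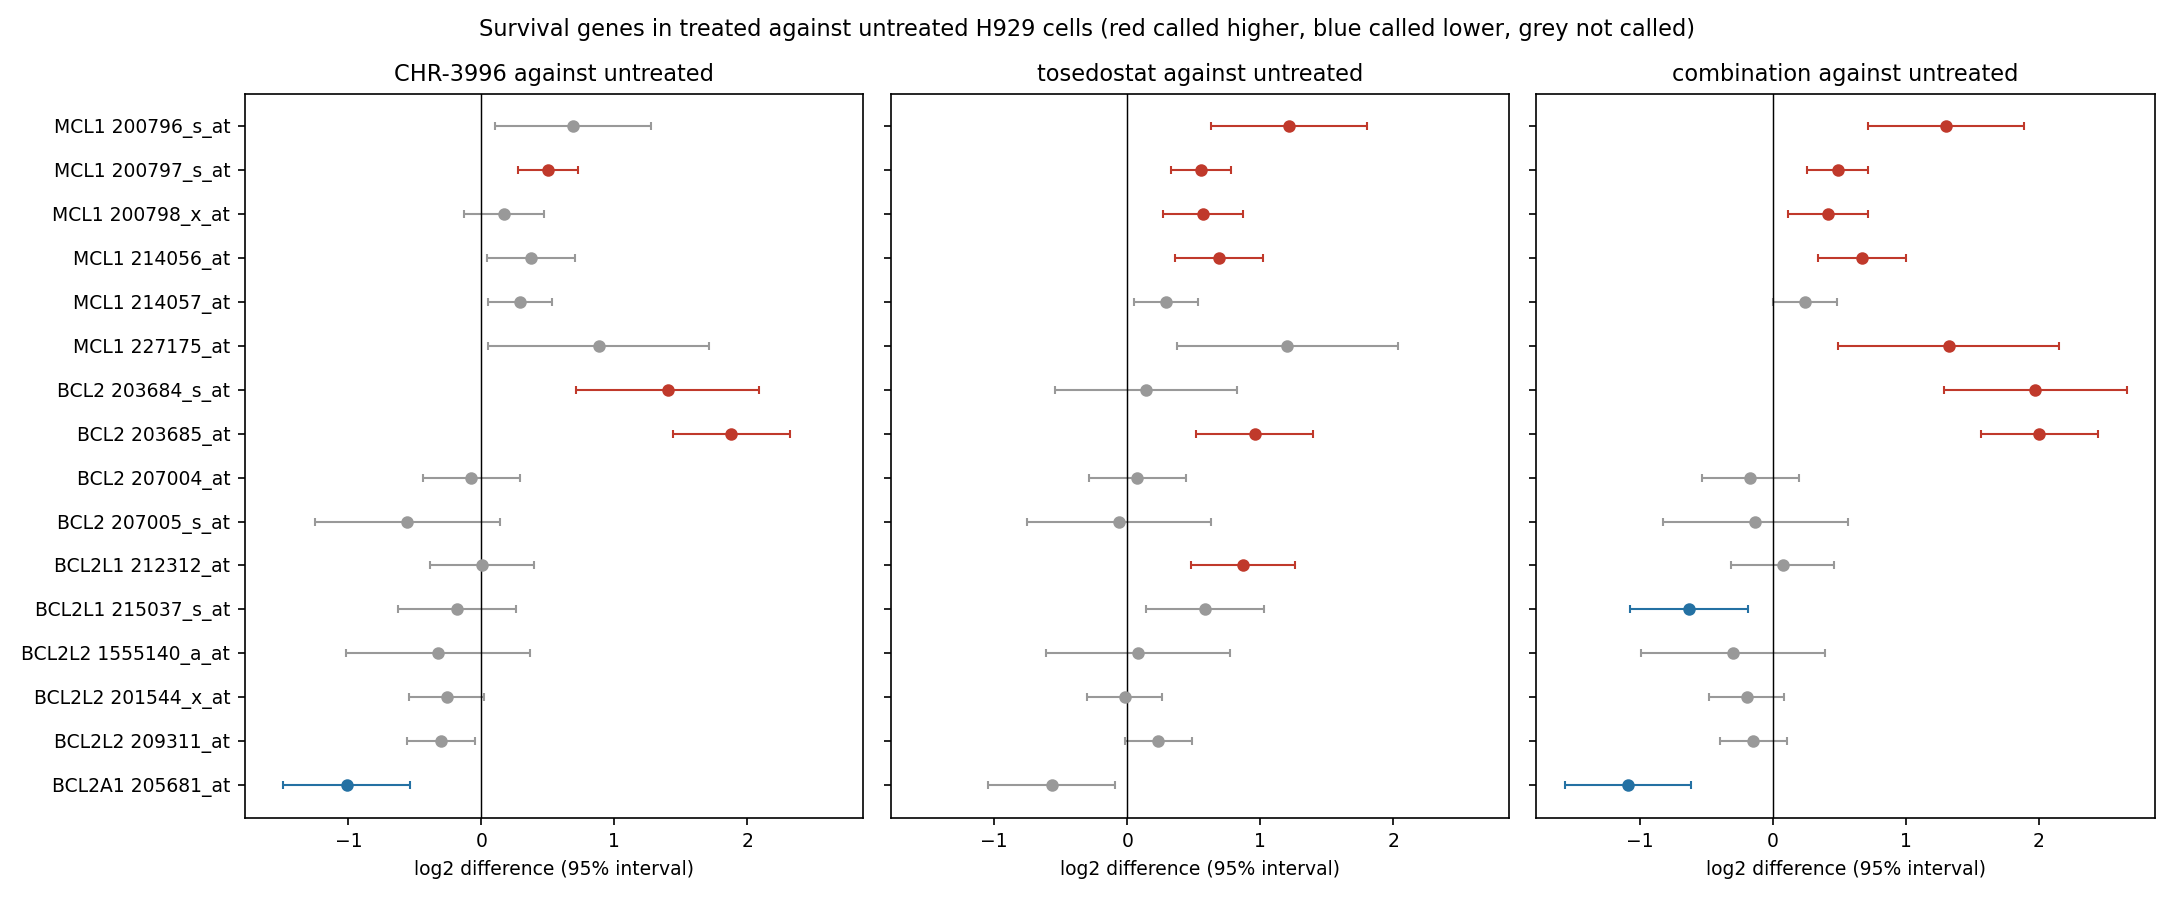
Log2 differences from untreated cells with 95% confidence intervals from limma for the 16 tested probe sets, with the gene and probe set on the vertical axis and 1 panel per treatment; red is called higher, blue called lower and grey not called. MCL1 probe sets lie to the right of 0 in all panels, the BCL2 probe sets 203684_s_at and 203685_at are farthest to the right with CHR-3996 and the combination, and BCL2A1 lies to the left.

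MCL1 encodes the short-lived survival protein on which most plasma cells rely. Its brightest probe set, 200797_s_at, read 12.72, 12.77 and 12.59 in untreated cells, 13.19, 13.28 and 13.10 with CHR-3996, 13.31, 13.26 and 13.17 with tosedostat, and 13.26, 13.15 and 13.12 with both. All 9 treated arrays lay above the 3 untreated arrays, and the 3 treated groups overlapped each other. It rose by 0.50 (SE 0.10, 1.42-fold, adjusted p = 0.00195) with CHR-3996. It rose by 0.56 (SE 0.10, 1.47-fold, adjusted p = 0.014) with tosedostat and by 0.49 (SE 0.10, 1.40-fold, adjusted p = 0.00238) with both. The order from low to high was untreated, combination, CHR-3996 and tosedostat, and of the neighbours only untreated and combination differed. With equal array medians the rises under CHR-3996 and the combination were 0.28 (adjusted p = 0.0522) and 0.24 (adjusted p = 0.0911) and no longer called, with quantile normalization they were 0.57 and 0.54 (adjusted p = 3.13e-04 and 4.37e-04), and over all alternatives their adjusted p lay between 4.07e-05 and 0.0522 and between 5.6e-05 and 0.0911.

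The other 5 MCL1 probe sets lay above untreated cells on average in all 3 comparisons, although with equal array medians 200798_x_at turned to −0.05 under CHR-3996 and 214057_at to −0.0067 under the combination, and with quantile normalization 214057_at turned to −0.0043 and −0.16, all uncalled. Under tosedostat 200796_s_at rose by 1.21 (SE 0.27), 214056_at by 0.69 (SE 0.15) and 200798_x_at by 0.57 (SE 0.14), with adjusted p of 0.0323, 0.032 and 0.0464. The values of 200796_s_at were 5.78, 6.33 and 5.52 in untreated cells, 6.35, 6.69 and 6.66 with CHR-3996, 6.88, 7.46 and 6.93 with tosedostat, and 6.82, 7.69 and 7.03 with both, so that every treated array was above every untreated one. Under the combination these 3 rose by 1.30, 0.67 and 0.41 (adjusted p = 0.00193, 0.00358 and 0.0275), and 227175_at rose by 1.32 (adjusted p = 0.014). The remaining probe set, 214057_at, differed by 0.29 under each single compound and by 0.24 under both, with no call. Under CHR-3996 the 5 differed by 0.17 to 0.88 and none was called. All arrays stood above the untreated ones in all 6 MCL1 probe sets under tosedostat and under the combination, and in 5 of 6 under CHR-3996. Over all tested probe sets this held for 16.1%, 36.6% and 33.4%, and the 6 read 1 gene on the same arrays. With the replicate number as a block, the tosedostat and untreated arrays of the same number deviating together, 227175_at was also called under tosedostat (1.21, adjusted p = 0.0251, against 0.123 without the block). With equal array medians 200798_x_at differed by 0.17 under the combination (adjusted p = 0.339) and by 0.56 under tosedostat (adjusted p = 0.0549), and with quantile normalization 227175_at differed by 0.99 under the combination (adjusted p = 0.0532), none of them called. The rise of 214056_at under the combination was 0.31 (adjusted p = 0.0496) with quantile normalization and 0.42 (adjusted p = 0.0353) with equal array medians, its adjusted p over the alternatives lying between 6.76e-04 and 0.0496. For the 3 uncalled values the adjusted p over the alternatives lay between 0.00454 and 0.339, 0.00494 and 0.168, and 0.00191 and 0.059.

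The array values show how far the dimmer MCL1 probe sets follow each other. In 214056_at they were 7.79, 8.03 and 7.90 in untreated cells, 8.09, 8.62 and 8.13 with CHR-3996, 8.47, 8.66 and 8.65 with tosedostat, and 8.44, 8.64 and 8.64 with both, with every treated array above the untreated ones. In 200798_x_at they were 12.26, 12.65 and 12.53, then 12.47, 12.88 and 12.58, then 13.08, 13.06 and 12.99, and then 12.89, 12.96 and 12.83 in the same order. There the CHR-3996 arrays overlapped the untreated arrays and the tosedostat and combination arrays did not. The dim 227175_at varied most between replicates, with 5.46, 5.85 and 4.27 in untreated cells, 6.01, 6.34 and 5.87 with CHR-3996, 6.30, 6.56 and 6.34 with tosedostat, and 6.46, 7.13 and 5.96 with both, and its lowest untreated array was replicate 3. In 214057_at, untreated arrays read 7.98, 7.80 and 7.78 and treated arrays between 7.99 and 8.26.

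BCL2 encodes the founding survival protein of the family, the target of venetoclax. Its brightest probe set, 203685_at, read 7.66, 8.001 and 7.56 in untreated cells, 9.27, 10.08 and 9.50 with CHR-3996, 8.69, 8.66 and 8.75 with tosedostat, and 9.69, 9.95 and 9.59 with both. The untreated, tosedostat and CHR-3996 arrays formed 3 levels without overlap, and the combination overlapped CHR-3996. It rose 3.68-fold with CHR-3996 (1.88, SE 0.20, adjusted p = 1.9e-05) and 4.01-fold with both (2.00, SE 0.20, adjusted p = 1.2e-05). The rise with tosedostat was 1.94-fold (0.96, SE 0.20, adjusted p = 0.0259). CHR-3996 was above tosedostat by 0.92 (adjusted p = 0.00317), so that only CHR-3996 and the combination were neighbours in order that did not differ. Under quantile normalization and equal array medians the rise with CHR-3996 was 1.63 and 1.66, and with the combination 1.67 and 1.76, all called.

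A dimmer BCL2 probe set, 203684_s_at, read 4.64, 5.18 and 3.93 in untreated cells, 5.61, 6.36 and 5.98 with CHR-3996, 4.55, 4.97 and 4.64 with tosedostat, and 6.14, 6.90 and 6.62 with both. It rose by 1.40 (SE 0.31, adjusted p = 0.00331) with CHR-3996 and by 1.97 (SE 0.31, adjusted p = 3.3e-04) with both, in every array. With tosedostat its difference was 0.14 with a 95% interval from −0.55 to 0.83 (adjusted p = 0.89), so that the 2 responding probe sets of BCL2 did not give the same answer for tosedostat. The other 2, 207004_at and 207005_s_at, are tied by the annotation to the shorter beta transcript, which ends differently from the alpha transcript behind 203685_at. They read between 4.02 and 5.84 on all arrays, overlapped between all groups and were not called in any comparison on the deposited scale, with differences from untreated cells between −0.56 and 0.08. With quantile normalization 207004_at was called lower under the combination (−0.49, adjusted p = 0.0279), and without CHR-3996 replicate 2 207005_s_at was called lower under CHR-3996 (−0.90, adjusted p = 0.0252). The adjusted p of these 2 differences over the alternatives lay between 0.0279 and 0.946 and between 0.0252 and 0.569. Both rescalings also called 207004_at lower in the combination than under tosedostat (−0.52 and −0.48, adjusted p = 0.0237 and 0.0365), and without CHR-3996 replicate 2 207005_s_at was called lower under CHR-3996 than under tosedostat (−0.84, adjusted p = 0.0358), with adjusted p over the alternatives from 0.0237 to 0.773 and from 0.0358 to 0.687.

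BCL2L1 encodes BCL-XL and, by alternative splicing, the shorter death-promoting BCL-XS. Its brightest probe set, 212312_at, read 7.79, 8.07 and 8.09 in untreated cells, 7.86, 8.28 and 7.82 with CHR-3996, 9.19, 8.60 and 8.78 with tosedostat, and 8.09, 7.93 and 8.15 with both. The tosedostat arrays stood above all 9 others, and the other 3 groups overlapped. It rose 1.83-fold with tosedostat (0.87, SE 0.18, adjusted p = 0.0231). With CHR-3996 the difference was 0.00 (95% interval −0.39 to 0.39) and with both 0.07 (−0.32 to 0.46), where rescaling gave −0.30 and −0.32 with quantile normalization and −0.22 and −0.18 with equal array medians, none of them called. The only neighbours in order that differed were the combination and tosedostat.

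A dimmer BCL2L1 probe set, 215037_s_at, exceeded the 40th percentile on 4 arrays, the 3 tosedostat arrays and untreated replicate 1, and so passed the filter mainly through the group in which it was high. It read 4.53, 4.13 and 4.35 in untreated cells, 4.07, 4.02 and 4.36 with CHR-3996, 5.15, 4.81 and 4.81 with tosedostat, and 3.80, 4.04 and 3.26 with both. The tosedostat arrays were above and the combination arrays below all untreated arrays. The differences were 0.59 (SE 0.20, adjusted p = 0.162) with tosedostat and −0.63 (SE 0.20, adjusted p = 0.0236) with both, the latter among values under the 40th percentile of their arrays, which lay between 4.61 and 4.65. That call was lost without untreated replicate 1 (adjusted p = 0.0855), untreated replicate 3 (0.0578) or combination replicate 3 (0.0885), and its adjusted p ranged from 0.00379 to 0.109 over the alternatives. The 2 untested probe sets were 206665_s_at, tied to the BCL-XS transcript, which read 2.92 to 4.63 and exceeded the 40th percentile on 2 arrays, and 231228_at, which read 1.67 to 5.06 and exceeded it on 1.

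BCL2L2 encodes BCL-W. Its brightest probe set, 209311_at, read 6.76, 6.92 and 6.87 in untreated cells, 6.43, 6.74 and 6.46 with CHR-3996, 7.16, 6.96 and 7.13 with tosedostat, and 6.72, 6.68 and 6.70 with both. The tosedostat arrays were above and the arrays of both groups with CHR-3996 below all untreated arrays, by small steps. Against untreated cells the differences were −0.30 with CHR-3996 (SE 0.11, adjusted p = 0.0503), 0.23 with tosedostat (adjusted p = 0.354) and −0.15 with both (adjusted p = 0.327), none of them called. Rescaling changed this. The difference with CHR-3996 became −0.69 (adjusted p = 1.44e-04) with quantile normalization and −0.52 (adjusted p = 0.00286) with equal array medians, and with both compounds −0.58 (4.52e-04) and −0.40 (0.0142), all called lower. Without CHR-3996 replicate 2, the highest of its group, the difference with CHR-3996 was −0.40 (adjusted p = 0.0141). Over the alternatives the adjusted p ranged from 1.44e-04 to 0.147 for CHR-3996 and from 4.52e-04 to 0.547 for both compounds. The dim probe set 1555140_a_at, above the 40th percentile on 7 arrays, and the shared probe set 201544_x_at differed from untreated cells by −0.33 to 0.08 and were not called, though either rescaling called 201544_x_at lower under CHR-3996 and the combination (adjusted p from 0.00975 to 0.0315).

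BCL2A1 encodes BFL-1, a survival protein known as a target of NF-κB in B cells. Its only probe set, 205681_at, read 6.91, 7.34 and 7.32 in untreated cells, 5.77, 6.40 and 6.37 with CHR-3996, 6.51, 6.82 and 6.54 with tosedostat, and 5.73, 6.22 and 6.35 with both. Every treated array lay below every untreated array, and the CHR-3996 and combination arrays also lay below the tosedostat arrays. With CHR-3996 it was 2.02-fold lower (−1.01, SE 0.22, adjusted p = 0.00259) and with both 2.13-fold lower (−1.09, SE 0.22, adjusted p = 0.00158). Both calls held in all alternatives run on them, with differences of −1.38 to −0.81 and −1.49 to −0.91, other than the study's own fold and difference criteria. With tosedostat the difference was −0.57 (SE 0.22, adjusted p = 0.211), and the replicate block called it lower (adjusted p = 0.0327).

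The calls under tosedostat depended on single arrays. None of the 16 probe sets was called without untreated replicate 3 or without tosedostat replicate 1, and 1 was called without untreated replicate 1, without tosedostat replicate 2 or without tosedostat replicate 3. The differences themselves moved little. Over the 12 fits that left out an array, the rise of MCL1 200797_s_at under tosedostat lay between 0.51 and 0.59, that of BCL2 203685_at between 0.87 and 1.09 and that of BCL2L1 212312_at between 0.71 and 1.00, with highest adjusted p of 0.0647, 0.1 and 0.0942. Over all tested probe sets, calls under tosedostat fell from 1338 to 618 without untreated replicate 3 and to 678 without tosedostat replicate 1. For MCL1 200798_x_at and 214056_at the call was lost in 9 and 7 of the 12 fits, and for 200796_s_at in 6. The calls of MCL1 200797_s_at, BCL2 203684_s_at and 203685_at and BCL2A1 under CHR-3996 and under the combination were kept in each of these 12 fits, whereas under the combination 227175_at was lost without combination replicate 2 (adjusted p = 0.0588) and 200798_x_at without untreated replicate 1 (0.113), combination replicate 1 (0.0608) or combination replicate 2 (0.0801).

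With tosedostat added to CHR-3996 no member was called, as was so for nearly all tested probe sets. Of 16 probe sets 0 were called in either direction by limma, where 0.0522% of all tested probe sets were called higher and 0.0110% lower (0.0632% either way). At an unadjusted p under 0.05 there were 2, 1 higher (MCL1 200796_s_at, 0.61) and 1 lower (BCL2L1 215037_s_at, −0.45), against 10.6% of all tested. The 95% interval of the difference was −0.24 to 0.21 for MCL1 200797_s_at, −0.31 to 0.57 for BCL2 203685_at, −0.32 to 0.46 for BCL2L1 212312_at, −0.10 to 0.41 for BCL2L2 209311_at and −0.56 to 0.40 for BCL2A1. All arrays of the combination were above those of CHR-3996 in 1 probe set of 16, where this held for 10.7% of all, and below them in 0, where this held for 4.09%.

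With CHR-3996 added to tosedostat, 2 of 4 BCL2 probe sets were called higher, and BCL2L1 212312_at and 1 of 3 BCL2L2 probe sets were called lower. The other BCL2 probe sets, 207004_at and 207005_s_at, differed by −0.25 and −0.07 and were not called on the deposited scale. Of 16 probe sets 2 were called higher and 3 lower, against 28.4% and 13.7% of all tested (42.1% either way). The arrays did not overlap in 2 probe sets that were higher and 5 that were lower, against 34.5% and 18.9% of all. The 3 lower calls and the 5 include BCL2L1 215037_s_at, which the filter placed there. BCL2 203685_at was higher by 1.05 (SE 0.20, adjusted p = 0.00142) and 203684_s_at by 1.83 (SE 0.31, adjusted p = 6.7e-04). BCL2L1 212312_at was lower by 0.80 on the log2 scale (−0.80, SE 0.18, adjusted p = 0.00361), with all 3 arrays of the combination below the tosedostat arrays, a difference of −1.07 with quantile normalization and −1.04 with equal array medians. The third lower call was 215037_s_at, which passed the filter through its high tosedostat arrays and so had to differ from them. Its difference of −1.22 is a description and supports nothing about BCL2L1. BCL2L2 209311_at differed by −0.38 (SE 0.11, adjusted p = 0.0196), a call lost without tosedostat replicate 1 (0.0722), tosedostat replicate 3 (0.0627), combination replicate 2 (0.0518) or combination replicate 3 (0.0511), and −0.72 and −0.62 with quantile normalization and equal array medians (adjusted p = 1.35e-04 and 0.00116). Both rescalings also called 201544_x_at lower (−0.23 and −0.42, adjusted p = 0.0387 and 0.0222, of a range of 0.0222 to 0.566). BCL2A1 differed by −0.52 (SE 0.22, adjusted p = 0.0755), and was called lower with the replicate block (0.00806), with quantile normalization (0.00589) and with equal array medians (0.0137). Its adjusted p over the alternatives lay between 0.00589 and 0.259. MCL1 was not called in any probe set, with differences between −0.15 and 0.12, although with equal array medians 200797_s_at differed by −0.31 (adjusted p = 0.0382) and 200798_x_at by −0.39 (adjusted p = 0.0396), and with quantile normalization 214057_at by −0.34 (adjusted p = 0.0222), all called lower.

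**Figure D3:**
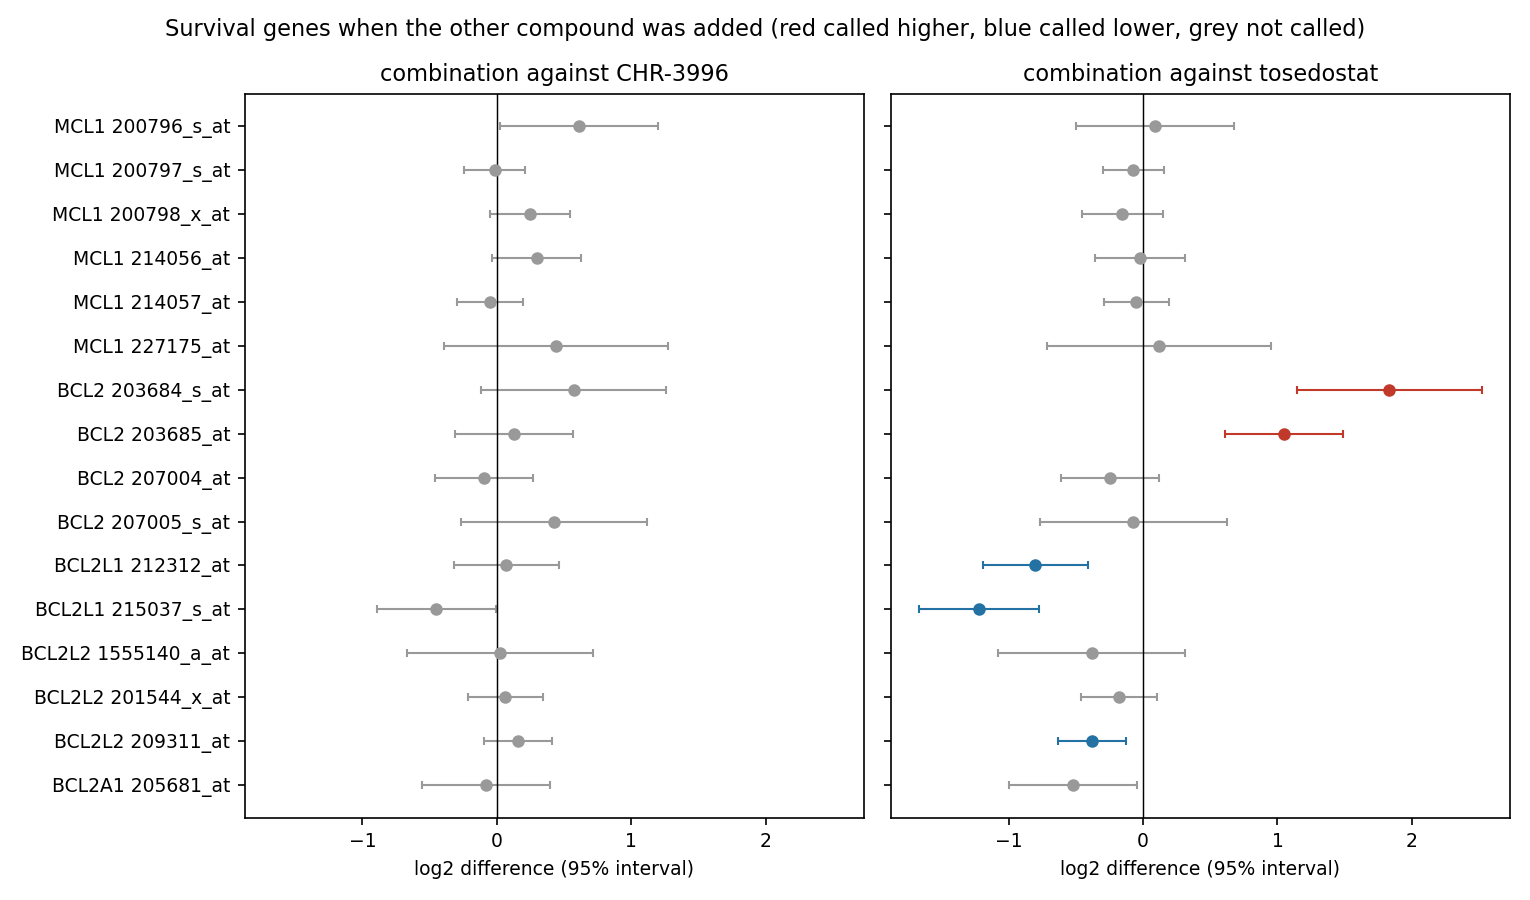
Log2 differences with 95% confidence intervals from limma for the 16 tested probe sets when the combination was compared with CHR-3996 (left, tosedostat added) and with tosedostat (right, CHR-3996 added); red is called higher, blue called lower and grey not called. The left panel has no call. Among the called points alone, the right panel has BCL2 to the right of 0 and BCL2L1 and 1 BCL2L2 probe set to the left. The dimmer of the BCL2L1 points passed the filter through its high tosedostat arrays.

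The 2 single compounds differed most in BCL2 and BCL2L1. CHR-3996 against tosedostat gave 2 calls higher and 4 lower of 16, against 26.3% and 16.6% of all tested (42.9% either way). The arrays did not overlap in 2 probe sets that were higher and 6 that were lower, against 31.6% and 21.0% of all. The 4 lower calls and the 6 include BCL2L1 215037_s_at, which the filter placed there. The higher calls were BCL2 203685_at (0.92) and 203684_s_at (1.26, adjusted p = 0.00687), and the lower ones were BCL2L1 212312_at (−0.87, adjusted p = 0.00212), BCL2L2 209311_at (−0.54, adjusted p = 0.00285), 215037_s_at (−0.77, given as a description because the tosedostat arrays carried it past the filter) and MCL1 200798_x_at (−0.40, adjusted p = 0.0342). The last of these was lost without any 1 of the 3 tosedostat arrays or without CHR-3996 replicate 1 or 3 (adjusted p from 0.0605 to 0.109), with quantile normalization (−0.27, 0.0649), with no filter (0.0676) and with the compared groups alone (0.0694), and was −0.61 with equal array medians, its adjusted p over the alternatives lying between 0.00393 and 0.109. With quantile normalization and equal array medians BCL2 203685_at differed by 0.81 and 0.71, 203684_s_at by 1.04 and 1.05, BCL2L1 212312_at by −1.05 and −1.08 and BCL2L2 209311_at by −0.82 and −0.75, all called. With the replicate block BCL2A1 was also called lower (−0.44, adjusted p = 0.0175, against 0.125), as were MCL1 200796_s_at (−0.52, 0.0213, against 0.142) and 214056_at (−0.32, 0.0483, against 0.118). Both rescalings called the same 3 lower, BCL2A1 at −0.72 and −0.65 (adjusted p = 0.0123 and 0.0276), MCL1 200796_s_at at −0.80 and −0.73 (0.0272 and 0.047) and 214056_at at −0.49 and −0.53 (0.00621 and 0.0137), and equal array medians also called 201544_x_at lower (−0.45, 0.0143). Over the alternatives these adjusted p lay between 0.0123 and 0.403, 0.0213 and 0.392, 0.00621 and 0.309, and 0.0143 and 0.413.

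The interaction term asks whether the combination differs from the sum of the differences under the single compounds. By limma 0 of 16 probe sets were called, against 0.206% of all tested (0.0220% higher and 0.184% lower), and 4 had an unadjusted p under 0.05, against 10.2% of all. These 4 were MCL1 200797_s_at (−0.57, SE 0.14, adjusted p = 0.185), BCL2 203685_at (−0.83, SE 0.28, adjusted p = 0.327), BCL2L1 212312_at (−0.80, SE 0.25, adjusted p = 0.283) and 215037_s_at (−1.04, a probe set that passed the filter through its tosedostat arrays), all with a combination below that sum. A variance trend with robust estimation called the first of them (adjusted p = 0.0193), and over the alternatives its adjusted p lay between 0.0193 and 0.399.

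The partners of the survival proteins were taken from a list of BH3-only and effector proteins, 10 of 11 of which were tested, each by its brightest probe set; BBC3 has no probe set of its own here. Under CHR-3996 4 were called higher and 3 lower, under tosedostat 1 higher and 0 lower, and under the combination 4 higher and 3 lower, with median differences of −0.21, 0.13 and −0.21. Of all tested probe sets 45.1%, 3.68% and 46.1% were called either way. The study reported rises of BIM and of PUMA (from BBC3) with CHR-3996. These counts and medians leave PUMA out, and BIM enters only by its brightest probe set, which may not be the study's. PMAIP1, which encodes the MCL1 antagonist NOXA, rose by 0.74 with CHR-3996 (adjusted p = 3.1e-04), by 1.01 with tosedostat (adjusted p = 0.00111) and by 0.88 with both (adjusted p = 8.4e-05), and was called in all 19 alternatives of each. The 19 alternatives of a listed gene leave out the study's own criteria, which were applied to the members only. BMF, a BH3-only protein held at the cytoskeleton, rose by 1.10 and 1.22 with CHR-3996 and the combination (adjusted p = 1.2e-04 and 5.6e-05), with 0.25 under tosedostat. BID, cleaved by caspases to an active form, fell by 1.90 and by 1.47 on the log2 scale (adjusted p = 1.0e-06 and 4.6e-06). BIK rose by 0.79 under CHR-3996 (adjusted p = 0.039), a call that held in 9 of 19 alternatives. Rescaling shifted the list downward, to 3 higher and 6 lower under CHR-3996 and the combination with quantile normalization and to 2 higher and 5 lower with equal array medians.

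Of 6 other survival genes 5 were tested, BIRC3 having no probe set of a single gene in the annotation, and 2 were called higher and 1 lower under CHR-3996, 1 higher and 0 lower under tosedostat and 1 each way under the combination, with median differences of 0.30, 0.14 and 0.18, where 29.4%, 3.23% and 32.0% of all tested probe sets were called higher and 15.7%, 0.451% and 14.1% lower. With equal array medians 0 were called higher under CHR-3996, and with quantile normalization 0 under tosedostat. The study reported BIRC3 among its largest rises, and these counts and medians leave it out. BIRC5, which encodes survivin, a protein of mitosis as well as of survival, differed by −2.24 with CHR-3996 (adjusted p = 6.8e-04) and −1.73 with both (adjusted p = 0.00359). CFLAR, which encodes the caspase 8 inhibitor FLIP, rose by 0.85 with tosedostat (adjusted p = 0.0116) and by 0.50 with CHR-3996 (adjusted p = 0.0179), calls that held in 16 and 13 of 19 alternatives, and was 0.58 lower with both than with tosedostat (−0.58, adjusted p = 0.00937). BIRC2 rose by 0.50 and 0.65 with CHR-3996 and the combination (adjusted p = 0.00397 and 7.0e-04), the first held in 18 of 19 alternatives.

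Of 4 genes that set the stability of the MCL1 protein, 3 were called higher under CHR-3996 and under the combination and 0 under tosedostat, with median differences of 0.55, 0.60 and 0.12. Of all tested probe sets 29.4%, 32.0% and 3.23% were called higher, and with either rescaling the 3 became 2. USP9X, the deubiquitinase that protects MCL1, rose by 1.07 and 1.16 (adjusted p = 6.6e-05 and 3.5e-05), called in all 19 alternatives. The ligase subunits BTRC and FBXW7, which mark MCL1 for degradation, rose by 0.59 and 0.52 under CHR-3996 (adjusted p = 0.00299 and 0.00528), and under the combination by 0.72 and 0.48 (adjusted p = 8.0e-04 and 0.00812). BTRC was not called under CHR-3996 with quantile normalization (0.21, adjusted p = 0.202) nor FBXW7 with equal array medians (0.30, adjusted p = 0.0665). HUWE1, the ligase also called MULE, differed by 0.05 (adjusted p = 0.677). The higher calls thus held genes of opposite known effect on the MCL1 protein, which these arrays do not measure.

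Of 8 transcription factors known to act on the member genes, 3 were called higher and 2 lower under CHR-3996, 2 higher and 0 lower under tosedostat and 4 higher and 2 lower under the combination, with median differences of 0.17, 0.14 and 0.52, beside calls either way for 45.1%, 3.68% and 46.1% of all tested probe sets. Quantile normalization gave 2 and 3, 1 and 0, and 3 and 3, and equal array medians gave 1 and 3, 1 and 0, and 3 and 2. RELB, the non-canonical NF-κB subunit, rose by 1.92 under tosedostat (adjusted p = 0.00134) and differed by −0.0049 under CHR-3996, and with both it was 1.20 lower than with tosedostat alone (−1.20, adjusted p = 0.00131); its rise with both against untreated cells, 0.72, was called in 13 of 19 alternatives. NFKB1 rose by 0.64 under tosedostat (adjusted p = 0.0482), called in 5 of 19 alternatives, and was lower with both than with tosedostat (−0.69, adjusted p = 0.00394). MYB, a known activator of BCL2, dropped by 1.97 log2 units with CHR-3996 (adjusted p = 3.9e-06), and STAT3, an activator of MCL1, rose by 0.67 (adjusted p = 3.1e-04). NFKB2 fell by 0.69 (adjusted p = 5.6e-04).

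**Figure D4:**
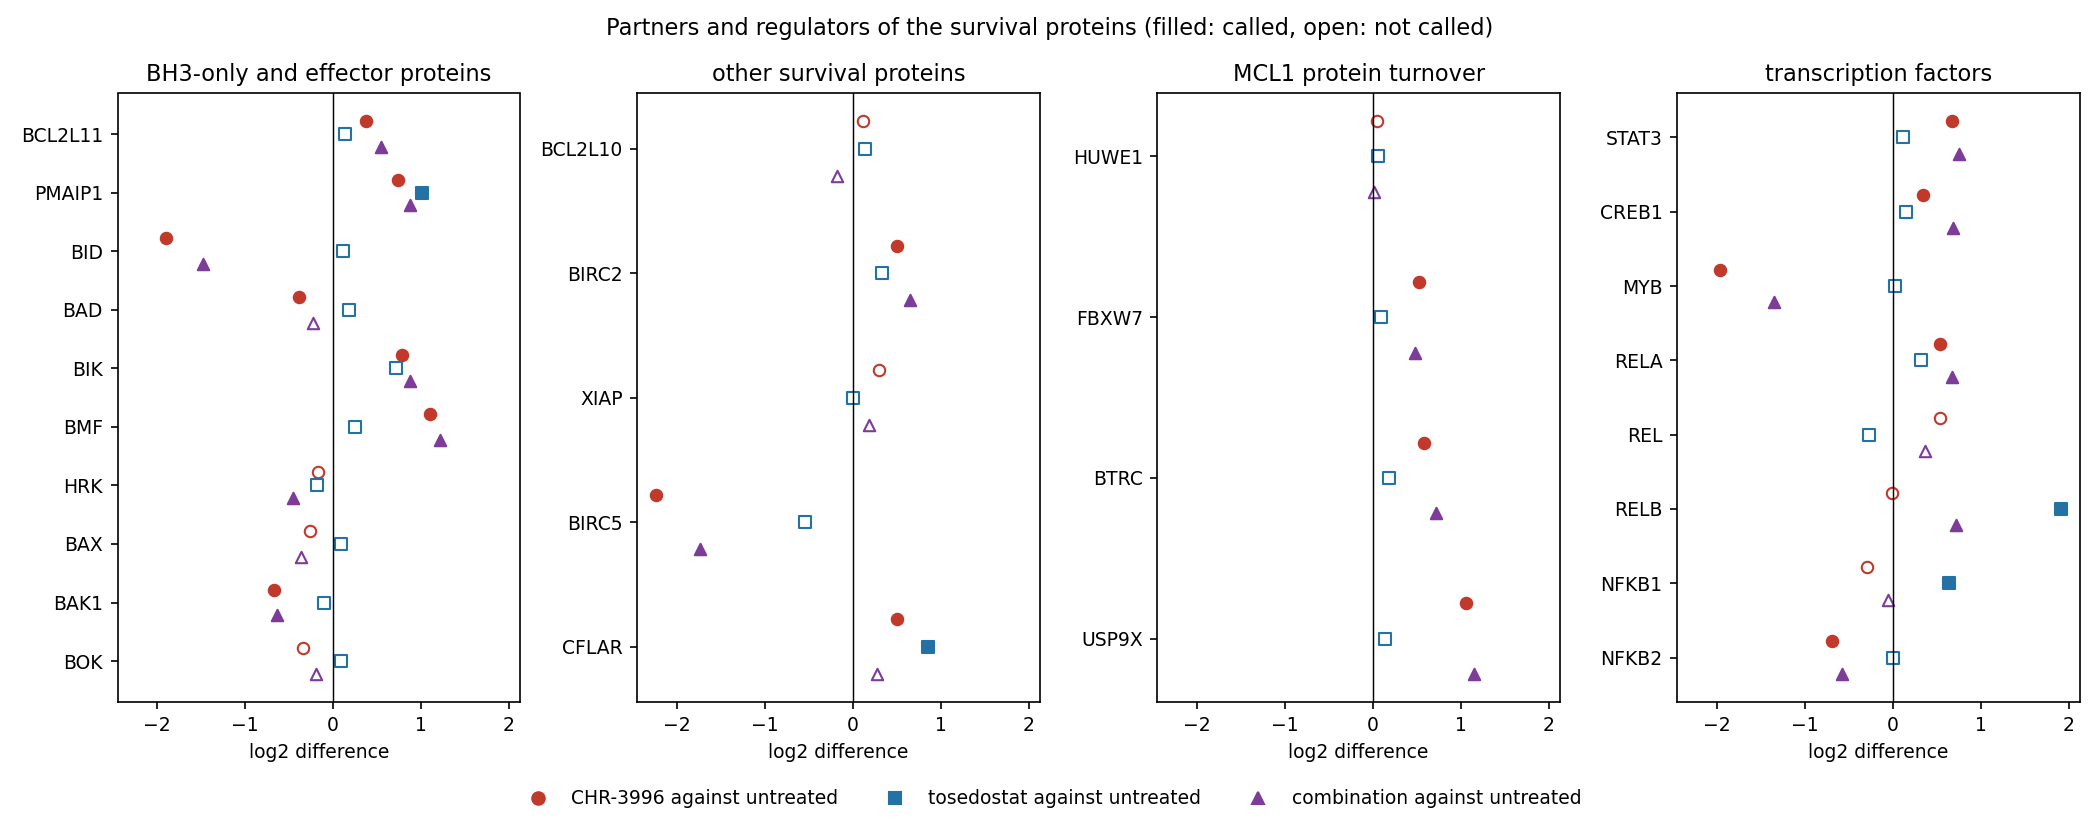
Log2 differences from untreated cells of the tested genes of 4 lists, by treatment; filled symbols were called by limma and open ones were not. PMAIP1 is filled in all 3 treatments, BID, BIRC5 and MYB are far to the left of 0 with CHR-3996 and the combination, and RELB is farthest to the right with tosedostat.

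For each member the genes with the nearest pattern were ranked over 15587 genes by the root mean square difference of centred values over the 12 arrays, as a description. Nearest to MCL1 200797_s_at were RAB3GAP1 (0.08 log2 units), HERPUD1 (0.09), a protein of the endoplasmic reticulum stress response, and ATG14 (0.09), an autophagy protein, beside a spread of MCL1 itself of 0.24 (SD over 12 arrays). Nearest to BCL2 were ITPR1 (0.14), the calcium channel of the endoplasmic reticulum, ARL6IP5 (0.16) and the kinase FYN (0.16), beside 0.87. For BCL2L1 they were CBX6 (0.15), RXRA (0.16) and LY75 (0.17), beside 0.43, for BCL2L2 the proteasome subunits PSMA4 (0.06) and PSMC6 (0.08) and the Mediator subunit MED11 (0.08), beside 0.23, and for BCL2A1 HNRNPH3 (0.17), RBM38 (0.18) and PIMREG (0.18), beside 0.51. ITPR1 averaged 6.48, 8.46, 7.56 and 8.45 in untreated, CHR-3996, tosedostat and combination cells, and RXRA averaged 7.75, 7.61, 8.59 and 7.74, highest under tosedostat alone like BCL2L1.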

How the data were processed

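Gene expression was measured in H929 cells on 12 Affymetrix U133 Plus 2.0 arrays, 3 per group. The authors amplified and labelled the RNA and normalized the scanned arrays in dChip, its version, normalization and summary method not given in the sources used here. Each deposited column holds log2 expression values for 54675 probe sets, 1141 to 1344 of them exactly 0 and up to 9 below 0.

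Controls (62 probe sets) were dropped, and 36395 probe sets that exceeded their array's 40th percentile on 3 or more arrays were tested. limma 3.58.1 in R 4.3.3 was fitted with 1 term per group (8 residual degrees of freedom), adjusting by Benjamini-Hochberg over all tested probe sets in each of 7 contrasts, with a threshold of 0.05. The fit was tested on simulated data. Gene symbols are those of the platform annotation, refreshed by gene identifier, and the brightest tested probe set with 1 symbol stands for a gene. Each list contributed by name up to 3 called genes per contrast, those with the largest differences and no overlap of arrays, and HUWE1 was named after its values were seen. The members and lists were chosen with earlier results of these data known. Replicate numbers were taken to pair groups whose same-numbered arrays deviated together at r over 0.1 in all 3 pairs. This held for tosedostat with untreated cells (0.126 to 0.288) and among the treated groups (0.116 to 0.280), not for CHR-3996 (0.036 to 0.120) or the combination (0.098 to 0.168) with untreated cells. The closing section lists the alternatives tried. Plots were made in Python 3.11.15 (matplotlib 3.10.9).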

Additional observations from a re-analysis of the deposited data

How the results depend on the processing

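The alternatives rescaled the arrays (quantile normalization or equal medians), dropped the filter or set it at the 60th percentile, added the replicate block or a variance trend, fitted the compared groups alone, applied the study's criteria, or left out each array in turn. Of 2180 member values recomputed over the alternatives, 1962 kept their side of the threshold and direction, 99 lost a call, 59 gained one, 0 were reversed and 60 uncalled values changed sign. Of 3557 values of the listed genes, to which the study's criteria were not applied, 3242 kept both, 164 lost a call and 60 gained one.

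The number of member probe sets called (of 16) moved by more than 1.5 times in these settings. By the study's own criteria it was 1 under CHR-3996, 0 under tosedostat, 1 under the combination, 1 for the combination against tosedostat and 0 for CHR-3996 against tosedostat (from 4, 6, 9, 5 and 6), where 13.3%, 0.769%, 13.4%, 11.2% and 11.6% of all tested probe sets met them; the 1 was BCL2 203685_at each time. Quantile normalization and equal array medians gave 9 and 10 for the combination against tosedostat (45.0% and 43.7% of all tested were called), and equal array medians gave 10 for CHR-3996 against tosedostat (44.3% of all). Under CHR-3996 the 60th percentile filter gave 8 of the 12 it kept (60.8% of all), BCL2L2 209311_at among them (adjusted p = 0.0289), and the replicate block gave 8 (48.7% of all), adding 4 MCL1 probe sets (200796_s_at at an adjusted p of 0.00509), though the numbers did not pair these groups. Under tosedostat the fit without a filter gave 1 of 18 (1.26% of all) and the fit on the compared groups alone gave 2 (1.87% of all). The variance trend lost BCL2L1 215037_s_at for CHR-3996 against tosedostat (adjusted p = 0.0556). The variance trend gave 1 for the interaction. The cause was not tested in any of these.

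Leaving out each array in turn gave 4 to 7 calls under CHR-3996 (7 without CHR-3996 replicate 2, which adds BCL2 207005_s_at and BCL2L2 201544_x_at and 209311_at, all lower), 0 to 6 under tosedostat, 7 to 9 under the combination, 0 to 0 for the combination against CHR-3996, 4 to 6 for the combination against tosedostat, 5 to 9 for CHR-3996 against tosedostat and 0 to 0 for the interaction. Of all tested probe sets these fits called 40.5% to 44.9% under CHR-3996, 1.7% to 3.97% under tosedostat and 40.9% to 47.2% under the combination. For the combination against tosedostat they called 36.6% to 43.2%, and for CHR-3996 against tosedostat 37.1% to 42.8%. For the combination against CHR-3996 it was 0.00275% to 0.044%, and for the interaction 0.0604% to 0.231%. The replicate block changed no other call in the paired comparisons than those given with the results. Over all tested probe sets, calls under tosedostat numbered 1338, but 686 with no filter, 682 on the compared groups alone and 2309 with the replicate block. With 3 arrays a group, small differences of dim probe sets could not be resolved.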
